A study of Homo sapiens with 6 samples.

Results

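The D cyclins, their kinases CDK4 and CDK6, the inhibitors of these kinases and their substrate RB1 were followed in the human line SK-N-AS, which came from a neuroblastoma. The genes were CCND1, CCND2, CCND3, CDK4, CDK6, CDKN1B, CDKN2A, CDKN2C, CDKN2D and RB1, taken by their symbols in the platform annotation whatever their values. Of these 10 genes, 9 had a probe set with a single gene symbol, out of 19775 such genes on the array, and CDKN2C was not analysed here. They held 24 probe sets, of which 15 passed the filter described below, and each gene was led by its probe set of highest mean signal.

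D cyclins bind and activate CDK4 and CDK6, and their levels follow growth signals. The active kinases phosphorylate the retinoblastoma protein RB1, which then releases E2F factors that switch on the genes of S phase. The INK4 proteins from CDKN2A, CDKN2C and CDKN2D bind CDK4 and CDK6 directly, while p27, the product of CDKN1B, holds cyclin-CDK2 complexes in check. CCND1 and CDK4 are known targets of genetic gain in neuroblastoma.

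The line was profiled in 3 cultures, with 2 arrays each. iCSC cells were exposed as a monolayer to 2.5 uM 5AdC, which blocks DNA methyltransferases, for 5 days and were grown afterwards as spheroids in medium without serum. Sphere cells grew as such spheroids with no pretreatment, and Monolayer cells grew attached, also with no pretreatment. By the labels iCSC differs from Sphere by the pretreatment, Sphere differs from Monolayer by the form of culture and the medium, and iCSC differs from Monolayer by all of these. Whether the 3 cultures also hold different populations of SK-N-AS cells was not tested, and marker levels and chromosome medians that differed between them are given beside the results. All values are log2 GCRMA signals. A gene was tested when it reached log2 5 on at least 2 of the 6 arrays, and it is said to be called, or to have risen or fallen, when the adjusted p of limma (Benjamini-Hochberg over 10459 tested genes) was under 0.05. No label states that both arrays of a culture are independent growths, and p-values thus reflect only how far these arrays spread, which may be technical.

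The arrays of a culture correlated over the tested genes at 0.984 for iCSC, 0.992 for Sphere and 0.996 for Monolayer. The SD of the difference between the 2 arrays was 0.43 for iCSC, 0.31 for Sphere and 0.24 for Monolayer. Of 11 sympathoadrenal neuroblast markers with a probe set, 10 in iCSC, 10 in Sphere and 3 in Monolayer reached log2 5 on both arrays, and DBH, which makes noradrenaline, stayed under it on all 6. Their summed linear signal was 13420 to 15345 in iCSC, 47143 to 55632 in Sphere and 978 to 1236 in Monolayer. PTPRC, the only 1 of 7 leukocyte markers with a level over log2 5, stood at 2.85 and 2.87 in iCSC, at 12.42 and 12.52 in Sphere and at 11.64 and 11.84 in Monolayer. Of 4 glial markers with a probe set, SOX10, S100B and GFAP stayed under log2 5 throughout, while ERBB3 had 7.74 and 7.08 in iCSC, 4.32 and 4.89 in Sphere and 5.15 and 5.21 in Monolayer, and was called higher in iCSC against both. Of 4 endothelial markers CDH5, VWF and KDR stayed under log2 5, while PECAM1 had 3.74 and 3.74 in iCSC, 5.45 and 5.73 in Sphere and 2.98 and 2.98 in Monolayer, and Sphere was called higher than both.

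The 13 mesenchymal neuroblastoma and fibroblast markers also differed, in both directions. Of these, 10 in iCSC, 9 in Sphere and 10 in Monolayer reached log2 5 on both arrays, and CD44 stayed under it on all 6. Their summed linear signal was 42774 to 45484 in iCSC, 42620 to 46532 in Sphere and 67911 to 69686 in Monolayer. Of the 12 tested, 5 rose and 6 fell in Sphere against Monolayer, 5 rose and 5 fell in iCSC against Sphere, and 5 rose and 4 fell in iCSC against Monolayer. AXL, a receptor kinase, had 6.91 and 6.12 in iCSC, 3.18 and 2.66 in Sphere and 13.39 and 13.37 in Monolayer. COL1A2, a chain of type I collagen, had 13.01 and 12.02 in iCSC, 4.99 and 4.22 in Sphere and 3.44 and 3.84 in Monolayer. DCN, the matrix proteoglycan decorin, had 8.50 and 8.75 in iCSC, 10.88 and 10.40 in Sphere and 2.73 and 2.87 in Monolayer. AXL was thus highest in Monolayer, COL1A2 in iCSC and DCN in Sphere. The part of these marker differences in the results below was not tested.

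Of the 9 genes, 8 passed the filter. Among the 8, 3 (37.5%) were called in Sphere against Monolayer, where 59.0% of all tested genes were. In iCSC against Sphere 4 (50%) were called, against 38.5% of all genes, and in iCSC against Monolayer 5 (62.5%) were called, against 55.6%. With so few genes these shares are a description, with no test. The direction was mixed in Sphere against Monolayer, with 1 gene higher and 2 lower and a median log2 change of -0.03 (0.01 over all genes). Of all tested genes 30.0% were called higher and 29.1% lower there. In iCSC against Sphere all 4 called genes were higher, with a median of 0.27 over the 8 genes (0.01 over all genes). Of all tested genes 19.3% were called higher and 19.2% lower in this comparison. CDKN2A (0.44) and RB1 (0.35) lay near the medians of their chromosomes, 0.45 and 0.31. CCND3 (1.73) and CDK6 (0.27) lay above theirs, 0.03 each. In iCSC against Monolayer 4 were higher and 1 lower, with a median of 0.23 (0.02 over all genes). Of all tested genes 29.0% were called higher and 26.6% lower. The higher CDK4 (0.51) and RB1 (0.33) lay near their chromosomes' medians of 0.54 and 0.37. CDK6 (0.23) and CDKN1B (1.14) lay above theirs of 0.09 and 0.54. The comparisons share arrays and are not independent of each other.

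**Figure D1:**
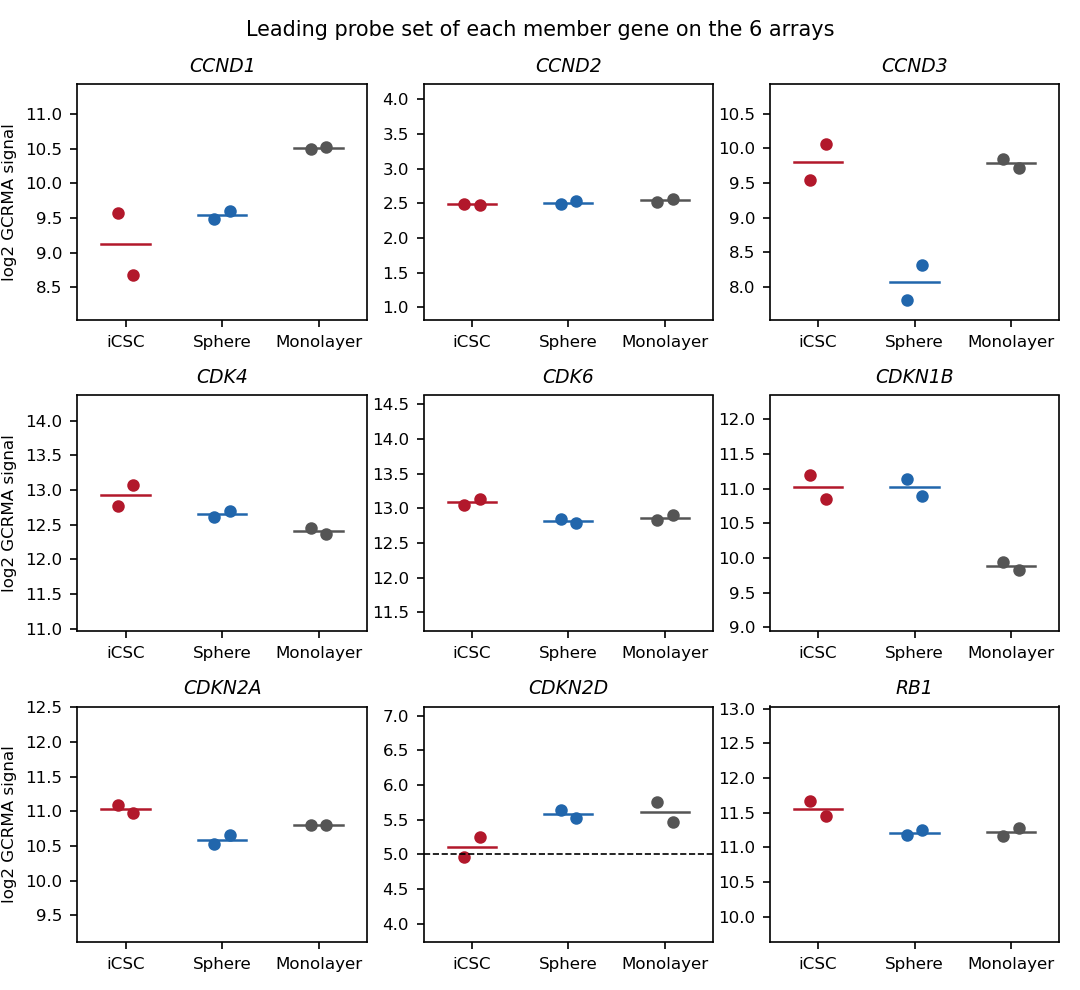
Log2 GCRMA signal of the leading probe set of 9 genes on each array, with iCSC, Sphere and Monolayer from left to right. Points are arrays and bars the mean of 2 arrays. A dashed line marks log2 5, which lies within the range of the CDKN2D panel only. Every panel spans the same range of log2 units; CCND3 is low in Sphere alone, CCND1 is high and CDKN1B low in Monolayer, and CCND2 lies near 2.5 on all arrays.

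Of the D cyclins, CCND3 was low in Sphere. CCND3, the D cyclin best known from lymphoid and muscle cells, had 9.54 and 10.07 in iCSC, 7.82 and 8.32 in Sphere and 9.85 and 9.72 in Monolayer. Both Sphere arrays lay below all other arrays, and the iCSC and Monolayer arrays overlapped. CCND3 fell by 1.72 ± 0.23 on the log2 scale in Sphere against Monolayer (SE, limma, adjusted p = 0.000942), which is 3.29-fold. It rose by 1.73 ± 0.23 in iCSC against Sphere (limma, adjusted p = 0.00175), which is 3.33-fold. The difference between iCSC and Monolayer was 0.02, with a 95% confidence interval of -0.54 to 0.57 (limma, adjusted p = 0.957). Both calls held under each alternative tried. The median change of the 20 tested genes next to CCND3 on chromosome 6 was 0.06 in Sphere against Monolayer and 0.12 in iCSC against Sphere. In bulk RNA, fewer cells with a transcript and less transcript per cell cannot be told apart. The other probe set, 1562028_at, stayed between 2.01 and 2.06 on all arrays. Over the 6 arrays, each centred on its gene's mean, the genes nearest to CCND3 among 10458 were NUDT14, CLN6 and PYGL, with root mean square differences of 0.118, 0.123 and 0.187 log2 units, against a median of 0.916 over all genes. NUDT14 averaged 4.02 in Sphere, under log2 5, so its likeness rests in part on values not above background.

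5AdC blocks the enzymes that methylate CpG, and the CpG content before a start of CCND3 is shown. Whether methylation has a part in the CCND3 levels was not tested. RefSeq (GRCh38.p14) lists 3 starts of CCND3, and which of them SK-N-AS uses is not given in the sources used here. The 250 bases before the start at chr6:41941809-41942058, minus strand, are written 5′ to 3′ with each CpG in capitals.
CCND3: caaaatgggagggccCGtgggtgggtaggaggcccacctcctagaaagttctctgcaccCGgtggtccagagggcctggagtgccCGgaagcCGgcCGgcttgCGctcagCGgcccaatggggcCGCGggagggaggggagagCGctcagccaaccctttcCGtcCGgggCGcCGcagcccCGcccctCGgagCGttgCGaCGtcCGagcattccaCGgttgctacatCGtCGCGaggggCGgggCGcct
This window held 26 CpG, as did 1 of the other 2 windows, while the last held 3. Of 35116 RefSeq windows of this length, 19.6% held at least 26, and the median was 11. DNA methylation was not measured in this series, and the sequence is given as description.

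CCND1, the D cyclin most often gained in tumours, was highest in Monolayer. It had 9.57 and 8.68 in iCSC, 9.48 and 9.60 in Sphere and 10.49 and 10.53 in Monolayer. Both Monolayer arrays lay above all spheroid arrays, and the iCSC arrays lay far apart from each other, on either side of a Sphere array. CCND1 fell by 1.39 ± 0.27 in iCSC against Monolayer (SE, limma, adjusted p = 0.00515), a 2.62-fold difference, a call lost without variance moderation (0.0695). CCND1 fell by 0.97 ± 0.27 in Sphere against Monolayer (limma, adjusted p = 0.0195), which is 1.96-fold. With only the 4 arrays of these cultures fitted, the SE was 0.09 (limma, adjusted p = 0.000401). The call was lost with no filter (0.0541) and without variance moderation (0.125). The Sphere call was lost without either Monolayer array (adjusted p = 0.0945 and 0.102) or either Sphere array (0.108 and 0.0746). In iCSC against Sphere the difference was -0.42 with a 95% confidence interval of -1.06 to 0.23 (adjusted p = 0.267). It was decided by 1 array: without iCSC array 1 it was -0.86 (limma, adjusted p = 0.00384), and without iCSC array 2 it was 0.03 (0.872). The second probe set, 208711_s_at, was called in the same comparisons, at -1.48 ± 0.20 in iCSC against Monolayer (limma over 18059 probe sets, adjusted p = 0.00109) and -1.12 ± 0.20 in Sphere against Monolayer (0.00326). Nearest to CCND1 over the 6 arrays were ETFB, CHIC1 and ZNF267, with root mean square differences of 0.138, 0.151 and 0.158, against a median of 0.731. CCND2, the remaining D cyclin, was not above background: its 4 probe sets lay between 2.10 and 2.56 on all arrays, so no change could be measured.

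The leading probe sets of the kinases differed by at most 0.51 on the log2 scale. CDK4 had 12.76 and 13.08 in iCSC, 12.61 and 12.69 in Sphere and 12.45 and 12.37 in Monolayer. The cultures did not overlap, with iCSC highest and Monolayer lowest. CDK4 rose by 0.51 ± 0.11 in iCSC against Monolayer (SE, limma, adjusted p = 0.00869), which is 1.42-fold. Its differences of 0.24 ± 0.11 in Sphere against Monolayer (adjusted p = 0.107) and 0.27 ± 0.11 in iCSC against Sphere (0.106) were not called. The call against Monolayer was lost without Monolayer array 2 (adjusted p = 0.0690). CDK4 lies on chromosome 12, whose 569 tested genes had a median change of 0.54 in iCSC against Monolayer and 0.49 in Sphere against Monolayer, and with chromosome medians removed CDK4 was at -0.03 (0.859) in iCSC against Monolayer and -0.25 (0.0995) in Sphere against Monolayer. Whether the cultures differ in copy number was not tested.

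CDK4 is a textbook target of MYC proteins, which bind the E-box CACGTG, so its promoter is shown, and MYC and MYCN values are given further on. The 250 bases before its RefSeq start, at chr12:57752311-57752560 on the minus strand of GRCh38.p14, are written 5′ to 3′ with each E-box in capitals.
CDK4: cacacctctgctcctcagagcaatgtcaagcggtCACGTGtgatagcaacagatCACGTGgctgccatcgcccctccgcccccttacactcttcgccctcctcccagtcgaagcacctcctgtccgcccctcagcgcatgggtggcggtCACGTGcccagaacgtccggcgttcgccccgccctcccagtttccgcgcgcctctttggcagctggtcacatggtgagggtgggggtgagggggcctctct
The motif reads the same on both strands and occurred 3 times. Of the 35116 windows, 6.34% held at least 1 and 28 windows, 0.0797%, held 3 or more. A match of letters is not a measured binding site.

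CDK6 is read by 7 probe sets, of which 231198_at stayed under 1.90 on all arrays and 6 passed. The leading one, 224847_at, had 13.05 and 13.13 in iCSC, 12.85 and 12.79 in Sphere and 12.83 and 12.90 in Monolayer. The iCSC arrays lay above the others, and Sphere and Monolayer overlapped. It rose in iCSC by 0.27 ± 0.07 against Sphere (SE, limma over genes, adjusted p = 0.0249) and by 0.23 ± 0.07 against Monolayer (0.0323), and differed by -0.04 between Sphere and Monolayer (0.650). Each of the 2 calls was lost without some arrays: the first without any array but iCSC array 1 (adjusted p = 0.0597 to 0.110), the second without Monolayer array 1 (0.182), Monolayer array 2 (0.0864) or iCSC array 2 (0.0941). The probe sets disagreed in direction in iCSC against Monolayer. In iCSC against Sphere 3 of 6 were called higher and none lower, with log2 changes of 0.17 to 0.45 (34.5% of all tested probe sets were called, 17.4% higher and 17.1% lower). Sphere against Monolayer had 2 lower and none higher, with changes of -1.12 to -0.04 (57.0% of all, 28.9% lower and 28.1% higher). In iCSC against Monolayer 1 was called higher and 2 lower, with changes of -0.88 to 0.23 (54.2% of all, 27.7% higher and 26.6% lower). The 2 lower ones were 235287_at and 243000_at. The probe set 243000_at had 6.03 and 5.99 in iCSC, 5.79 and 5.74 in Sphere and 6.88 and 6.89 in Monolayer. Its Monolayer arrays were the highest, whereas the iCSC arrays were the highest for the leading probe set. Which transcripts of CDK6 each probe set reads is not given in the sources used here.

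**Figure D2:**
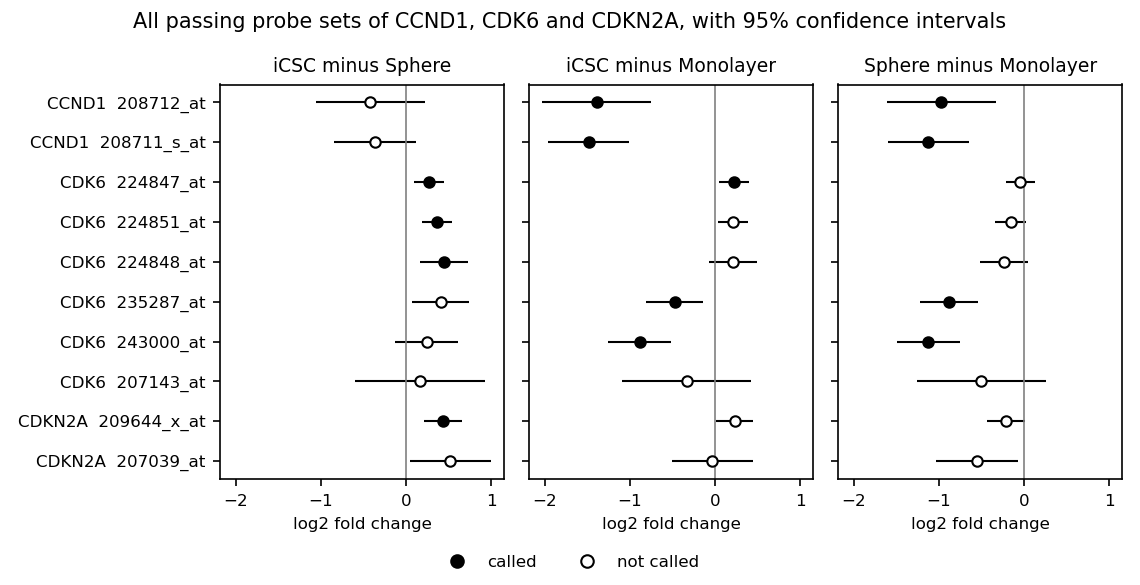
Log2 fold change with 95% confidence interval of every passing probe set of CCND1, CDK6 and CDKN2A, for iCSC minus Sphere, iCSC minus Monolayer and Sphere minus Monolayer; filled points were called over all probe sets. The 2 probe sets of CCND1 lie close together, while those of CDK6 spread from -0.88 to 0.23 in iCSC minus Monolayer.

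Of the p27 and INK4 genes tested, CDKN1B rose in both spheroid cultures against Monolayer. CDKN1B encodes p27, which accumulates in cells that leave the cycle. Its only probe set had 11.19 and 10.85 in iCSC, 11.14 and 10.90 in Sphere and 9.95 and 9.82 in Monolayer. All 4 spheroid arrays lay above both Monolayer arrays, and iCSC and Sphere overlapped. CDKN1B rose by 1.13 ± 0.15 in Sphere against Monolayer (SE, limma, adjusted p = 0.000781), which is 2.19-fold, and in iCSC against Monolayer by 1.14 ± 0.15 (0.000894), which is 2.20-fold. The difference between iCSC and Sphere was 0.01, with a 95% confidence interval of -0.35 to 0.36 (adjusted p = 0.982). Both calls held under each alternative tried. Genes of chromosome 12 were shifted in the same direction, by medians of 0.49 in Sphere against Monolayer and 0.54 in iCSC against Monolayer, and the 20 tested genes next to CDKN1B by medians of 1.14 and 0.65 in these 2 comparisons. With chromosome medians removed CDKN1B stood at 0.64 in Sphere against Monolayer (adjusted p = 0.00958) and 0.60 in iCSC against Monolayer (0.0141). No alternative removed the medians of the neighbouring genes. The genes nearest to CDKN1B over the 6 arrays were CCSER2, MARF1 and LTA4H, with root mean square differences of 0.0509, 0.0633 and 0.0678, against a median of 0.653.

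The promoter of CDKN1B is shown because the transcript rose in both spheroid cultures and FOXO factors, Sp1 and NF-Y are known regulators of the gene. The 250 bases before its RefSeq start, at chr12:12717118-12717367 on the plus strand of GRCh38.p14, are written 5′ to 3′, with the CCAAT box (CCAAT) and the GC box (GGGCGG), searched on both strands, in capitals.
CDKN1B: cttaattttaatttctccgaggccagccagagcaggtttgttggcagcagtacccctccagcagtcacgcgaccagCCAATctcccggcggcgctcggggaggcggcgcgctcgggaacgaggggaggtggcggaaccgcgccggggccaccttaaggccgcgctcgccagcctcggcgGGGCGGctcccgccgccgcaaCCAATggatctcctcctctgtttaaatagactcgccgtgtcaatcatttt
It held 2 CCAAT boxes, which 9.53% of the windows matched or exceeded, and 1 GC box, which 42.6% did. The motifs are letters in a window and no measure of binding.

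**Figure D3:**
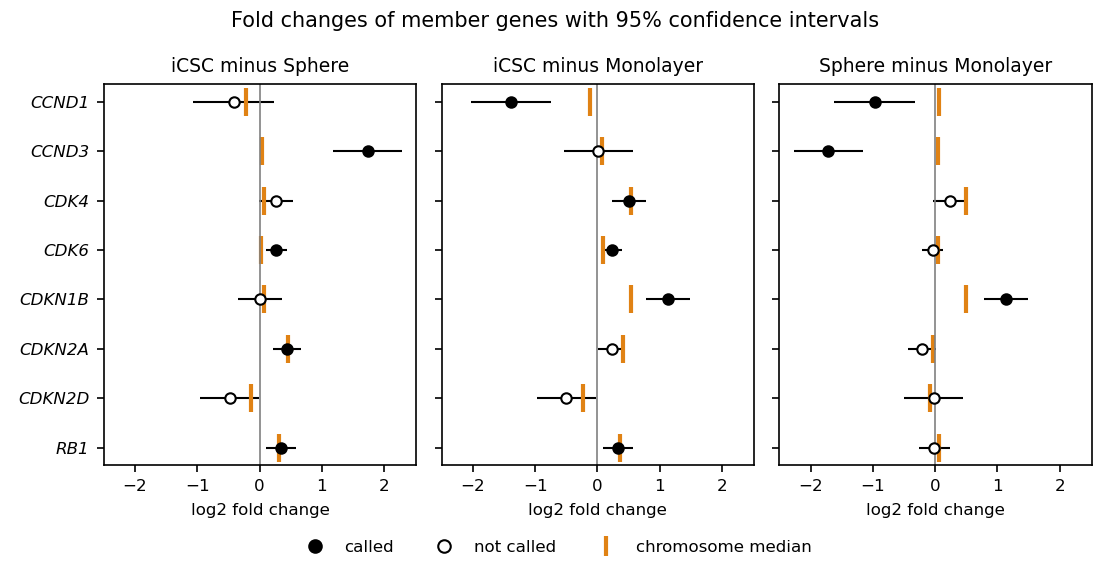
Log2 fold change of the 8 tested genes with 95% confidence intervals for iCSC minus Sphere, iCSC minus Monolayer and Sphere minus Monolayer; filled points were called, and the orange tick is the median change of all tested genes on the gene's chromosome. CCND3 and CCND1 lie far from their chromosome's median where called, and the RB1 and CDKN2A intervals include theirs where they were called. CDKN1B lies beyond a shifted chromosome median. The 20 tested genes next to CDKN1B, not drawn, had a median of 1.14 in Sphere minus Monolayer, where CDKN1B was at 1.13. In iCSC minus Monolayer their median was 0.65, and CDKN1B was at 1.14.

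The leading probe sets of CDKN2A, CDKN2D and RB1 differed between cultures by 0.50 log2 units or less. CDKN2A, which encodes the CDK4 and CDK6 inhibitor p16 and, from another reading frame, the p53 activator p14ARF, had 11.09 and 10.98 in iCSC, 10.53 and 10.66 in Sphere and 10.80 and 10.80 in Monolayer. The cultures did not overlap, with Sphere lowest. CDKN2A rose by 0.44 ± 0.09 in iCSC against Sphere (SE, limma, adjusted p = 0.0107), which is 1.36-fold. It differed by -0.21 in Sphere against Monolayer (adjusted p = 0.0911) and 0.23 in iCSC against Monolayer (0.0722), neither of them called. The call was lost without Sphere array 1 (adjusted p = 0.0629), and with chromosome medians removed the change was -0.01 (0.928), since the 417 tested genes of chromosome 9 had a median of 0.45. Its leading probe set has the suffix x_at, which marks probes that can match other transcripts, and its split between p16 and p14ARF is not given in the sources used here. A second probe set, 207039_at, lay between 5.07 and 5.88, and its differences of -0.55 in Sphere against Monolayer and 0.52 in iCSC against Sphere were not called, and 211156_at lay between 2.49 and 2.56.

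CDKN2D, which encodes the INK4 protein p19, lay near the limit. It had 4.97 and 5.25 in iCSC, 5.64 and 5.53 in Sphere and 5.75 and 5.46 in Monolayer, with 1 iCSC array under log2 5. Both iCSC arrays were the lowest, but no comparison was called: the differences were -0.48 ± 0.20 in iCSC against Sphere (SE, limma, adjusted p = 0.102), -0.50 ± 0.20 in iCSC against Monolayer (0.0705) and -0.02 ± 0.20 in Sphere against Monolayer (0.940). RB1, the substrate of the kinases, had 11.67 and 11.45 in iCSC, 11.18 and 11.24 in Sphere and 11.17 and 11.28 in Monolayer. The iCSC arrays lay above the others, while Sphere and Monolayer overlapped. RB1 rose in iCSC by 0.35 ± 0.10 against Sphere (SE, limma, adjusted p = 0.0361) and by 0.33 ± 0.10 against Monolayer (0.0300). The 2 calls were weak: leaving out any array but iCSC array 2 ended both (adjusted p = 0.0745 to 0.153 against Sphere and 0.0530 to 0.167 against Monolayer), and with chromosome medians removed RB1 stood at 0.04 (0.808) and -0.04 (0.788). The 197 tested genes of chromosome 13 had medians of 0.31 against Sphere and 0.37 against Monolayer. The other probe sets of these genes stayed low on all arrays, 213586_at of CDKN2D between 2.22 and 2.28 and 211540_s_at of RB1 between 2.40 and 2.53.

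Around this core, 106 other genes of the pathway and the cell cycle were listed in 7 groups, and 96 were tested. In Sphere against Monolayer 51 (53.1%) fell and 14 (14.6%) rose, where 29.1% of all genes fell and 30.0% rose, with a median log2 change of -0.36. In iCSC against Sphere 23 (24.0%) rose and 8 (8.33%) fell, where 19.3% of all genes rose and 19.2% fell, with a median of 0.22. In iCSC against Monolayer 16 (16.7%) rose and 35 (36.5%) fell, where 29.0% of all genes rose and 26.6% fell, with a median of -0.16. These shares of all genes are the background for the share of each group given in brackets below. Leaving out 1 array moved the 65 calls of Sphere against Monolayer to 39 (Monolayer array 1) or 43 (Sphere array 1), the 31 of iCSC against Sphere to 18 (Sphere array 1), and the 51 of iCSC against Monolayer to 25 (either Monolayer array).

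The other CDK inhibitors, 4 genes, all passed. In Sphere against Monolayer 2 (50%) rose and 1 (25%) fell, in iCSC against Sphere 1 (25%) rose and 3 (75%) fell, and in iCSC against Monolayer 1 (25%) rose and 2 (50%) fell. CDKN1C, which encodes p57, a relative of p27, had 9.67 and 8.98 in iCSC, 6.99 and 5.51 in Sphere and 2.66 and 3.70 in Monolayer, where both arrays were under log2 5. The cultures did not overlap. Relative to Monolayer, CDKN1C was higher by at least 20.0-fold in iCSC (limma, adjusted p = 0.000215) and by at least 2.38-fold in Sphere (0.00366), with every value under log2 5 set to 5 for the bound. The Sphere bound rests on arrays that lie apart: without Sphere array 1 it was 1.42-fold and without Sphere array 2 it was 3.98-fold. CDKN1C rose by 3.07 ± 0.56 in iCSC against Sphere (SE, limma, adjusted p = 0.00649), by 3.82 without Sphere array 1 and by 2.33 without Sphere array 2. This call was lost without variance moderation (adjusted p = 0.0908). With every value under log2 5 set to 5 before the fit, the call of Sphere against Monolayer was lost (adjusted p = 0.0705), as it was without variance moderation (0.0619).

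CDKN1A, which encodes p21, the p53 target, had 5.34 and 5.50 in iCSC, 6.48 and 7.35 in Sphere and 4.98 and 5.24 in Monolayer, with 1 Monolayer array under log2 5. Both Sphere arrays were the highest. CDKN1A rose by 1.81 ± 0.30 in Sphere against Monolayer (SE, limma, adjusted p = 0.00247) and fell by 1.49 ± 0.30 in iCSC against Sphere (0.00965), the second call being lost without variance moderation (0.0886). CDKN2B, the INK4 gene next to CDKN2A that encodes p15, had 5.49 and 4.58 in iCSC, 6.08 and 7.45 in Sphere and 6.84 and 6.76 in Monolayer. Both iCSC arrays were the lowest, 1 of them under log2 5, and CDKN2B fell in iCSC, with log2 changes of -1.73 ± 0.48 against Sphere (SE, limma, adjusted p = 0.0306) and -1.77 ± 0.48 against Monolayer (0.0204). These calls were lost without several single arrays: Monolayer array 1, Monolayer array 2, Sphere array 2 or iCSC array 2 against Sphere (adjusted p = 0.0738 to 0.130), and Monolayer array 1, Monolayer array 2 or iCSC array 2 against Monolayer (0.0931 to 0.106). The change against Sphere was -2.42 without Sphere array 1 and -1.05 without Sphere array 2. CDKN3, a phosphatase that acts on CDKs and peaks in mitosis, fell in iCSC, with log2 changes of -1.30 ± 0.21 against Sphere (limma, adjusted p = 0.00422) and -1.91 ± 0.21 against Monolayer (0.000507). The call against Sphere was lost with chromosome medians removed (adjusted p = 0.0671) and without variance moderation (0.0703). CDKN3 also fell in Sphere against Monolayer, by a log2 change of -0.61 ± 0.21 (limma, adjusted p = 0.0453), a call that 9 of 18 alternatives ended (up to 0.241), among them leaving out either Sphere or either Monolayer array.

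Of 16 pocket proteins, E2F and DP factors, 15 were tested. In Sphere against Monolayer 6 (40%) fell and 4 (26.7%) rose, in iCSC against Sphere 4 (26.7%) rose and 1 (6.67%) fell, and in iCSC against Monolayer 4 rose and 4 fell (26.7% each). E2F7, a repressor that E2F factors induce late in G1, had 9.30 and 9.41 in iCSC, 7.43 and 7.64 in Sphere and 10.14 and 9.90 in Monolayer. It was lowest in Sphere, and the cultures did not overlap. E2F7 fell by 2.49 ± 0.14 in Sphere against Monolayer (SE, limma, adjusted p = 1.99e-05) and rose by 1.82 ± 0.14 in iCSC against Sphere (0.000175). TFDP1, the DNA-binding partner of E2F factors, fell in Sphere against Monolayer, with a log2 change of -1.30 ± 0.11 (limma, adjusted p = 0.000113). It rose by 1.0 ± 0.11 in iCSC against Sphere (0.000740). TFDP1 lies on chromosome 13, whose median was 0.31 in iCSC against Sphere. With chromosome medians removed the rise was 0.69, and the call held. RBL1, which encodes the RB1 relative p107, fell against Monolayer, with log2 changes of -1.51 ± 0.16 in Sphere (limma, adjusted p = 0.000305) and -0.99 ± 0.16 in iCSC (0.00227). E2F5, a partner of the p130 pocket protein, rose against Monolayer by 1.08 ± 0.13 in Sphere (adjusted p = 0.000639) and by 1.11 ± 0.13 in iCSC (0.000671). E2F1, the main activating E2F, rose by 0.78 ± 0.16 in iCSC against Monolayer (limma, adjusted p = 0.00612), a call lost without Monolayer array 2 (0.0537).

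The group of cyclin E, CDK2 and the CDK-activating kinase had 7 tested genes. In Sphere against Monolayer 4 (57.1%) fell and none rose, in iCSC against Monolayer 6 (85.7%) fell and none rose, and in iCSC against Sphere 2 (28.6%) rose and 1 (14.3%) fell. The 6 that fell in iCSC against Monolayer included CDK7, CCNH and MNAT1 of the CDK-activating kinase, at -0.55, -0.53 and -0.71. CDK2 was not called there (0.21, limma, adjusted p = 0.187). The gene that fell in iCSC against Sphere was CDK7. CCNE2, an E-type cyclin, had 10.15 and 10.27 in iCSC, 8.89 and 9.07 in Sphere and 11.28 and 11.24 in Monolayer. The cultures did not overlap, with Sphere lowest and iCSC between. CCNE2 fell by 2.27 ± 0.11 in Sphere against Monolayer (SE, limma, adjusted p = 8.24e-06), fell by 1.05 ± 0.11 in iCSC against Monolayer (0.000344), and rose by 1.23 ± 0.11 in iCSC against Sphere (0.000271). CCNE1, the other E-type cyclin, fell by 0.73 ± 0.21 in Sphere against Monolayer (adjusted p = 0.0223), and without any 1 of these 4 arrays the adjusted p was 0.0556 to 0.129.

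Among 13 tested genes of p27 and D cyclin turnover, 2 (15.4%) rose and 5 (38.5%) fell in Sphere against Monolayer, while iCSC had 3 (23.1%) higher and 1 (7.69%) lower in each of its comparisons. SKP2, which marks p27 for degradation, had 13.48 and 13.35 in iCSC, 12.91 and 12.75 in Sphere and 13.43 and 13.55 in Monolayer. Both Sphere arrays were the lowest, while iCSC and Monolayer overlapped. SKP2 fell by 0.65 ± 0.09 in Sphere against Monolayer (SE, limma, adjusted p = 0.00103) and rose by 0.58 ± 0.09 in iCSC against Sphere (0.00328). FBXW8, a cullin adaptor reported to target cyclin D1, rose against Monolayer. The rise was 1.73 ± 0.16 in Sphere (limma, adjusted p = 0.000204) and 1.47 ± 0.16 in iCSC (0.000511). FBXW8 lies on chromosome 12, and with chromosome medians removed it stood at 1.24 and 0.94, and the calls held.

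Of 19 upstream factors of D cyclin and INK4 genes, 15 were tested. In Sphere against Monolayer 5 (33.3%) rose and 3 (20%) fell, where 30.0% of all genes rose and 29.1% fell. Against Sphere, iCSC had 2 (13.3%) higher and 1 (6.67%) lower, and in iCSC against Monolayer 7 (46.7%) rose and 3 (20%) fell. MYC had 10.75 and 10.36 in iCSC, 11.84 and 11.25 in Sphere and 10.02 and 10.20 in Monolayer. Both Sphere arrays were the highest, and whether MYC or MYCN acts on CDK4 in these cultures was not tested. MYC rose by 1.44 ± 0.22 in Sphere against Monolayer (SE, limma, adjusted p = 0.00161) and fell by 0.99 ± 0.22 in iCSC against Sphere (0.0133), a call lost without Sphere array 1 (0.0661) or iCSC array 2 (0.0574). MYCN, the MYC relative amplified in many neuroblastomas, had 7.97 and 5.62 in iCSC, 2.68 and 2.73 in Sphere and 2.67 and 2.72 in Monolayer. It was above log2 5 in iCSC and under it on the other 4 arrays, and the iCSC arrays were far apart. FOXO3, a forkhead factor known to activate CDKN1B, had 12.02 and 11.53 in iCSC, 11.83 and 11.53 in Sphere and 9.67 and 9.60 in Monolayer. All 4 spheroid arrays lay above both Monolayer arrays, and whether FOXO3 acts on CDKN1B in these cultures was not tested. FOXO3 rose against Monolayer by 2.05 ± 0.18 in Sphere (limma, adjusted p = 0.000138) and by 2.14 ± 0.18 in iCSC (0.000143). TBX2, a repressor of CDKN2A in other cells, rose against Monolayer by 1.75 ± 0.14 in Sphere (adjusted p = 8.56e-05) and by 1.79 ± 0.14 in iCSC (0.000100). FOSL1, an AP-1 subunit and known activator of CCND1, had 3.48 and 4.01 in iCSC, 3.43 and 4.59 in Sphere and 9.69 and 9.57 in Monolayer. Only the Monolayer arrays were above log2 5, and FOSL1 was at least 24.7-fold lower than Monolayer in Sphere (limma, adjusted p = 4.49e-05) and in iCSC (5.15e-05). ID1, an inhibitor of bHLH factors that represses CDKN2A, fell against Monolayer. Its log2 changes were -3.05 ± 0.19 in Sphere (limma, adjusted p = 3.16e-05) and -2.75 ± 0.19 in iCSC (6.82e-05). Whether FOSL1 acts on CCND1, or TBX2 or ID1 on CDKN2A, in these cultures was not tested.

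Most of the listed S phase genes, which E2F factors regulate, and most of the listed mitosis genes fell in Sphere against Monolayer. Of 22 tested S phase and replication genes, 15 (68.2%) fell and 1 (4.55%) rose in Sphere against Monolayer, with a median log2 change of -0.47, and 9 (40.9%) fell and 1 (4.55%) rose in iCSC against Monolayer, with a median of -0.28. In iCSC against Sphere 2 (9.09%) rose and 1 (4.55%) fell, with a median of 0.19. TK1, a thymidine kinase made in S phase, fell against Monolayer, with log2 changes of -1.72 ± 0.27 in Sphere (SE, limma, adjusted p = 0.00193) and -1.48 ± 0.27 in iCSC (0.00427), a call lost without variance moderation (0.0640). RRM2, which supplies deoxynucleotides, fell by 0.99 ± 0.13 in Sphere against Monolayer (adjusted p = 0.000878). PCNA, the replication clamp, moved the other way: it rose by 0.44 ± 0.08 in Sphere against Monolayer (adjusted p = 0.00334) and fell by 0.45 ± 0.08 in iCSC against Sphere (0.00548).

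All 20 G2/M and mitosis genes were tested. In Sphere against Monolayer 17 (85%) fell and none rose, with a median log2 change of -0.75. Against Sphere, 9 (45%) rose and none fell in iCSC, with a median of 0.39, and in iCSC against Monolayer 10 (50%) fell and none rose, with a median of -0.37. AURKB, a mitotic kinase, had 8.79 and 9.08 in iCSC, 7.42 and 7.58 in Sphere and 9.45 and 9.48 in Monolayer. The cultures did not overlap, with Sphere lowest. AURKB fell by 1.96 ± 0.15 in Sphere against Monolayer (SE, limma, adjusted p = 6.93e-05) and rose by 1.43 ± 0.15 in iCSC against Sphere (0.000582). KIF23, a motor protein of cell division, fell by 2.02 ± 0.11 in Sphere against Monolayer (adjusted p = 1.71e-05) and rose by 1.17 ± 0.11 in iCSC against Sphere (0.000420). NUSAP1, a spindle protein, fell in Sphere against Monolayer, with a log2 change of -1.20 ± 0.07 (limma, adjusted p = 2.65e-05), and rose by 0.97 ± 0.07 in iCSC against Sphere (0.000145). KIF23 and NUSAP1 lie on chromosome 15, whose tested genes had medians of -0.46 in Sphere against Monolayer and 0.47 in iCSC against Sphere. With chromosome medians removed KIF23 stood at -1.56 and 0.70 in these comparisons and NUSAP1 at -0.74 and 0.50, and the calls held. MKI67, the proliferation marker Ki-67, fell by 0.74 ± 0.15 in Sphere against Monolayer (adjusted p = 0.00544), a call lost without Monolayer array 2 (0.0519). The sympathoadrenal markers moved opposite to these genes, with 10 of 10 tested higher in Sphere against Monolayer and 8 of 10 lower in iCSC against Sphere, and their part in these counts, and that of the mesenchymal markers, was not tested.

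**Figure D4:**
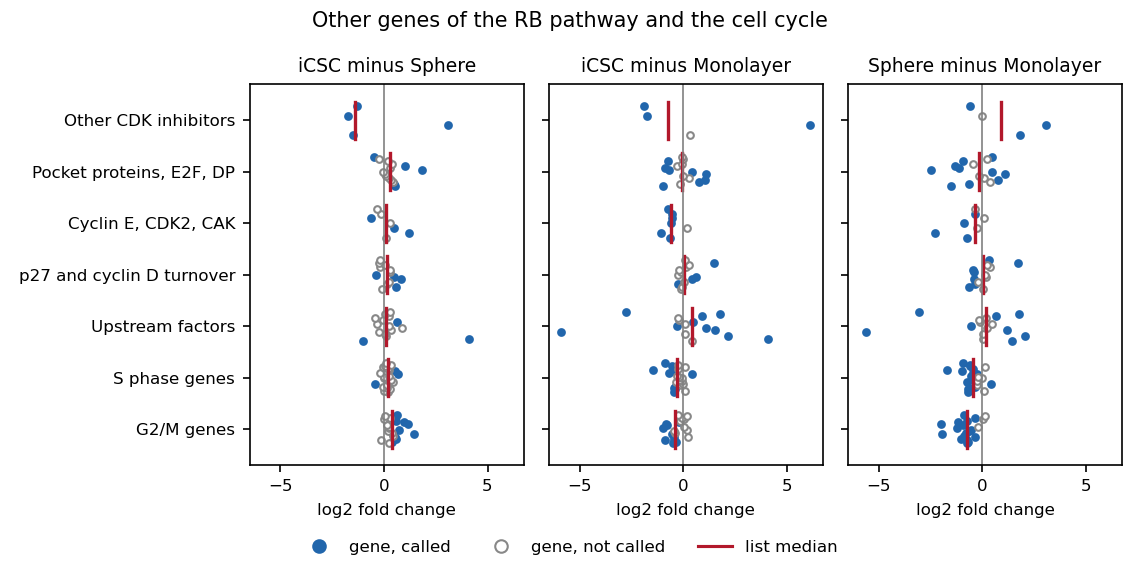
Log2 fold change of the 96 tested genes in 7 groups for iCSC minus Sphere, iCSC minus Monolayer and Sphere minus Monolayer, with filled points called, open points not called and a red bar for the group's median. The G2/M median is -0.75 in Sphere minus Monolayer and 0.39 in iCSC minus Sphere. CDKN1C, MYCN and FOSL1 each have a culture under log2 5, and their changes from it are plotted as deposited. With values under log2 5 set to 5, MYCN is at 1.80 in both iCSC comparisons. CDKN1C is then at 1.25 and FOSL1 at -4.63 in Sphere minus Monolayer.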

How the data were processed

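Messenger RNA was measured in 3 cultures on 2 arrays each. Per the labels' protocols, RNeasy columns gave the total RNA, and MessageAmp Premier turned 200 ng of it into biotin-labelled target. The deposited table holds log2 signals that the authors made with GCRMA, and Partek is also named in the submitters' processing notes. The sources used here give no versions, settings or genome build. Under GCRMA, probe sets with no transcript crowd into a low band, so log2 5 was taken as background and no fold was taken from a culture under it on all its arrays. Array medians lay between 2.78 and 2.83, and 34.3% to 35.2% of probe sets reached log2 5. The number of arrays limits the precision.

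Groups came from the sample titles and culture labels. Of 54675 probe sets, 41091 had 1 gene symbol, 1801 had several, 11721 had none and 62 were controls. Of those with 1 symbol, 41037 were matched by Entrez identifier, and their symbols were updated where they differed. A probe set entered with log2 of at least 5 on at least 2 of 6 arrays, which gave 18059 probe sets and, with the highest mean per gene, 10459 genes. Each was fitted over all 6 arrays with limma 3.58.1 (R 4.3.3), with a mean-variance trend, 3 residual degrees of freedom and two-sided Benjamini-Hochberg adjusted p-values. Where a culture lay under log2 5 on all arrays, "at least" gives the fold with such values set to 5, and its p comes from the values as deposited. Likeness is the root mean square difference between gene-centred log2 values. Promoter windows are RefSeq's (GRCh38.p14).

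Arrays with the same number did not deviate together (correlations of deviations of 0.0186 for Sphere and Monolayer, -0.0530 for iCSC and Monolayer and 0.173 for iCSC and Sphere), so the numbers were not used as pairs. The fit was tested on simulated arrays of 10459 genes with 200 changed, while 4022 to 6176 genes were called in the data. It recovered 22% to 26% of 1.5-fold changes, 52% to 62% of 2-fold, 84% to 92% of 4-fold and 96% to 98% of 8-fold changes. The genes and lists were chosen with earlier results of these data known. The text names all 10 genes and part of those a rule gave: up to 4 called genes per list and direction with the largest change, MYC, MYCN, CDKN1A, CCNE1, CCNE2 and MKI67, and the 3 genes nearest to each 2-fold changed one. PTPRC, ERBB3, PECAM1, AXL, COL1A2, DCN and the markers under log2 5 come from marker lists, and the first 6 of these were chosen after their values were seen. Alternatives were other filters, a floor, 2 normalizations, removal of chromosome medians, 2 variance models, only the 4 arrays compared, other probe set choices, the replicate block and leaving out each array.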

Additional observations from a re-analysis of the deposited data

How the results depend on the processing

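Over 18 alternatives the fall of CCND3 in Sphere against Monolayer and its rise in iCSC against Sphere, and the rises of CDKN1B in both spheroid cultures, kept their calls. Of 423 results for the 8 genes, 340 kept direction and side of the threshold, 47 lost the call, 13 gained it and 23 changed sign. Of 932 results for 53 named pathway comparisons, 888 kept both and 44 lost the call. Where a value changed, the cause was not tested.

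The 3 calls among the 8 genes in Sphere against Monolayer became 5 with the mean of a gene's passing probe sets, and 2 to 4 without 1 array. For iCSC against Sphere the 4 calls became 2 with chromosome medians removed, without the mean-variance trend, without variance moderation and with only the 4 arrays compared, and 1 to 5 without 1 array (1 without Sphere array 1). The 5 calls in iCSC against Monolayer became 3 with no filter or with arrays centred on their median, 2 with chromosome medians removed, 1 without moderation, and 2 to 5 without 1 array (2 without Monolayer array 2). Without moderation the pathway calls fell to 42 of 96 for Sphere against Monolayer, 14 for iCSC against Sphere and 26 for iCSC against Monolayer, and leaving out x_at and s_at probe sets made the last 33. Without 1 array they ranged from 39 to 67, from 18 to 35 and from 25 to 58, in the same order. Over all genes, iCSC against Sphere had 4022 calls and 2281 without moderation, or 2574 without Sphere array 1.

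Some signs changed. With chromosome medians removed CDK4 was at -0.25 in Sphere against Monolayer and -0.0264 in iCSC against Monolayer, CDKN2A at -0.0137 (iCSC against Sphere) and at -0.18 when iCSC was set against Monolayer, RB1 at -0.0362 and CCND3 at -0.0536 in iCSC against Monolayer, CDKN2D at 0.0598 in Sphere against Monolayer and CDKN1B at -0.0588 in iCSC against Sphere. Renewed quantile normalization gave 0.0159 for CDK6 and 0.0374 for RB1 in Sphere against Monolayer. Centred arrays gave -0.0042 for CDKN1B in iCSC against Sphere and -0.0224 for CCND3 in iCSC against Monolayer. The mean of passing probe sets gave CDK6 -0.17 in iCSC against Monolayer and a called -0.49 in Sphere against Monolayer, and without x_at and s_at CDKN2A was at -0.0300 in iCSC against Monolayer. Without 1 array the ranges were -0.17 to 0.12 for CDKN2D and -0.0663 to 0.0401 for RB1 in Sphere against Monolayer, -0.86 to 0.0279 for CCND1 and -0.16 to 0.18 for CDKN1B in iCSC against Sphere, and -0.25 to 0.28 for CCND3 in iCSC against Monolayer.

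With the replicate number as a block the 8 genes again had 3, 4 and 5 calls and the pathway lists 65, 31 and 51. In Sphere against Monolayer the block lowered the SE of CCND1, CCND3, CDK4 and CDKN1B, for CDKN1B from 0.146 to 0.102. It raised the SE of CDK6, CDKN2A, CDKN2D and RB1. A fit without 1 array assumes that the lone array of its culture varies like the others. With 2 arrays per culture small differences can go undetected, and genes under log2 5 on all arrays have no measured level.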
